A study of Nasonia vitripennis with 6 samples.

Results

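The loci described here were lower in BMP pRNAi embryos of the parasitoid wasp Nasonia vitripennis, and in Toll pRNAi embryos they were at most slightly lower. They have no expression pattern in the study's list of genes with patterns seen by in situ hybridization. They were chosen from FPKM, that is fragments scaled for the length of the transcripts and the size of the library. A locus was taken where the mean of the 2 water libraries was above 3 FPKM and where the BMP pRNAi mean was at most the water mean divided by 1.5, with both BMP pRNAi libraries below both water libraries. The Toll pRNAi mean also had to be at least 0.9 of the water mean. Of 20033 loci in the deposited table, 122 passed these limits. Of these, 53 were left out, 52 because they are paired with a gene of that list and 1 because it is dpp, which leaves 69 loci. A gene identifier is paired with 23 of the 69, and the other 46 are known here only by the locus number of the deposited table (XLOC). The pairing table was used only in part and gives the study's significant loci first, and 10 of the 118 identifiers in the pattern list found no locus in it, so some of the 46 may be genes that do have a listed pattern.

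The study injected female pupae with about 2 μg of double-stranded RNA, or with water, and sequenced poly-A RNA from pools of their 4 to 7 h embryos. BMP pRNAi comprises 2 libraries, 1 against the ligand gene dpp and 1 against the ligand gene gbb1. Toll pRNAi comprises 2 libraries against the receptor gene TollA made with dsRNAs from separate stretches of the gene. The mothers of the 2 reference libraries received water. Pairs of BMP pRNAi values below give the dpp library and then the gbb1 library. Each library is a pool of whole embryos, no strain or genotype is given in the sources used here, and the difference between the ligands has no replicate. All are labelled late blastoderm. The water libraries carry other numbers in their titles than the knockdown libraries, and what these numbers mark is not given in the sources used here.

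Bone morphogenetic proteins (BMPs) are secreted ligands that bind paired receptors and act through Smad transcription factors. In insects a gradient of BMP activity patterns the dorsal side of the blastoderm, where high levels specify extraembryonic tissue and lower levels the dorsal ectoderm, while the Toll receptor acts from the ventral side. In Nasonia, BMP signalling is needed over nearly the whole axis, and embryos without it are ventralized. Toll pRNAi does the reverse and leaves dorsal fates. A gene that needs BMP input and not Toll input is therefore looked for among those that fall in the first knockdown and hold their level in the second.

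The libraries held 22754267 to 30590172 assigned fragments. The marker genes of the mesoderm and of the dorsal side moved with the knockdowns. All 3 mesoderm markers were higher in BMP pRNAi and lower in Toll pRNAi (edgeR adjusted p under 0.05), with summed levels of 123 and 146 FPKM in the dpp and gbb1 libraries, 11.4 and 15.5 FPKM in Toll pRNAi and 68.6 and 65.0 FPKM in water. All 5 dorsal and extraembryonic markers were lower in BMP pRNAi by the same test, with sums of 18.1 and 18.7 FPKM in BMP pRNAi, 88.9 and 92.5 FPKM in Toll pRNAi and 69.5 and 73.3 FPKM in water. No marker was at 0 in any library. Of the germline markers, 2 of 3 were paired and neither passed the test. Since whole embryos were pooled, fewer cells of a type and less RNA per cell cannot be told apart in any value below, and what the shift of cell types contributes was not tested.

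The rule used all 6 libraries, so the falls given here describe how the loci were picked and carry no test. Over the 69 loci the mean level had a median of 5.36 FPKM in BMP pRNAi, 10.6 FPKM in Toll pRNAi and 9.69 FPKM in water. The ratio of water to BMP pRNAi had a median of 1.67 and ran between 1.504 and 3.23. Its median was 1.82 at the 23 loci with a paired identifier and 1.59 at the other 46. Most of the falls were small, as 54 loci fell less than 2-fold, 15 at least 2-fold and 2 at least 3-fold. The loci were also weakly expressed in water, where 36 lay below 10 FPKM, 26 between 10 and 50 FPKM and 7 at 50 FPKM or above. All 6829 loci above 3 FPKM in water had a median of 23.9 FPKM in water and a median BMP pRNAi to water ratio of 1.05, against 0.60 over the 69. Of these 6829 loci, 25.5% had both BMP pRNAi libraries below both water libraries, 3.66% met the 1.5-fold limit and 1.79% met every limit of the rule.

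In the edgeR fit over 10241 loci, 49 of the 69 had an adjusted p under 0.05 for BMP pRNAi against water, all of them lower. In that comparison 3.49% of all loci tested were called lower and 2.06% higher. Against BMP pRNAi, 53 of the 69 were called higher in Toll pRNAi, where 5.83% of all loci were. Both Toll pRNAi libraries lay above both BMP pRNAi libraries at 67 of the 69, all but XLOC_004564 and XLOC_002885, and at 23.3% of all loci above 3 FPKM in water. Both comparisons entered the rule, so these counts describe the loci and say nothing more about them. The fit uses fragments and the rule uses FPKM, which is scaled for the estimated mix of transcripts at a locus. On fragments the median log2 fold change was -0.72, and 9 loci fell less than 1.5-fold. The fitted fold of 66 loci lay within 0.2 log2 units of the FPKM ratio. The largest gaps were at XLOC_007163, with a fitted log2 fold change of -0.25 on fragments, XLOC_018459, with -0.46, and XLOC_000600, with -0.15.

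**Figure D1:**
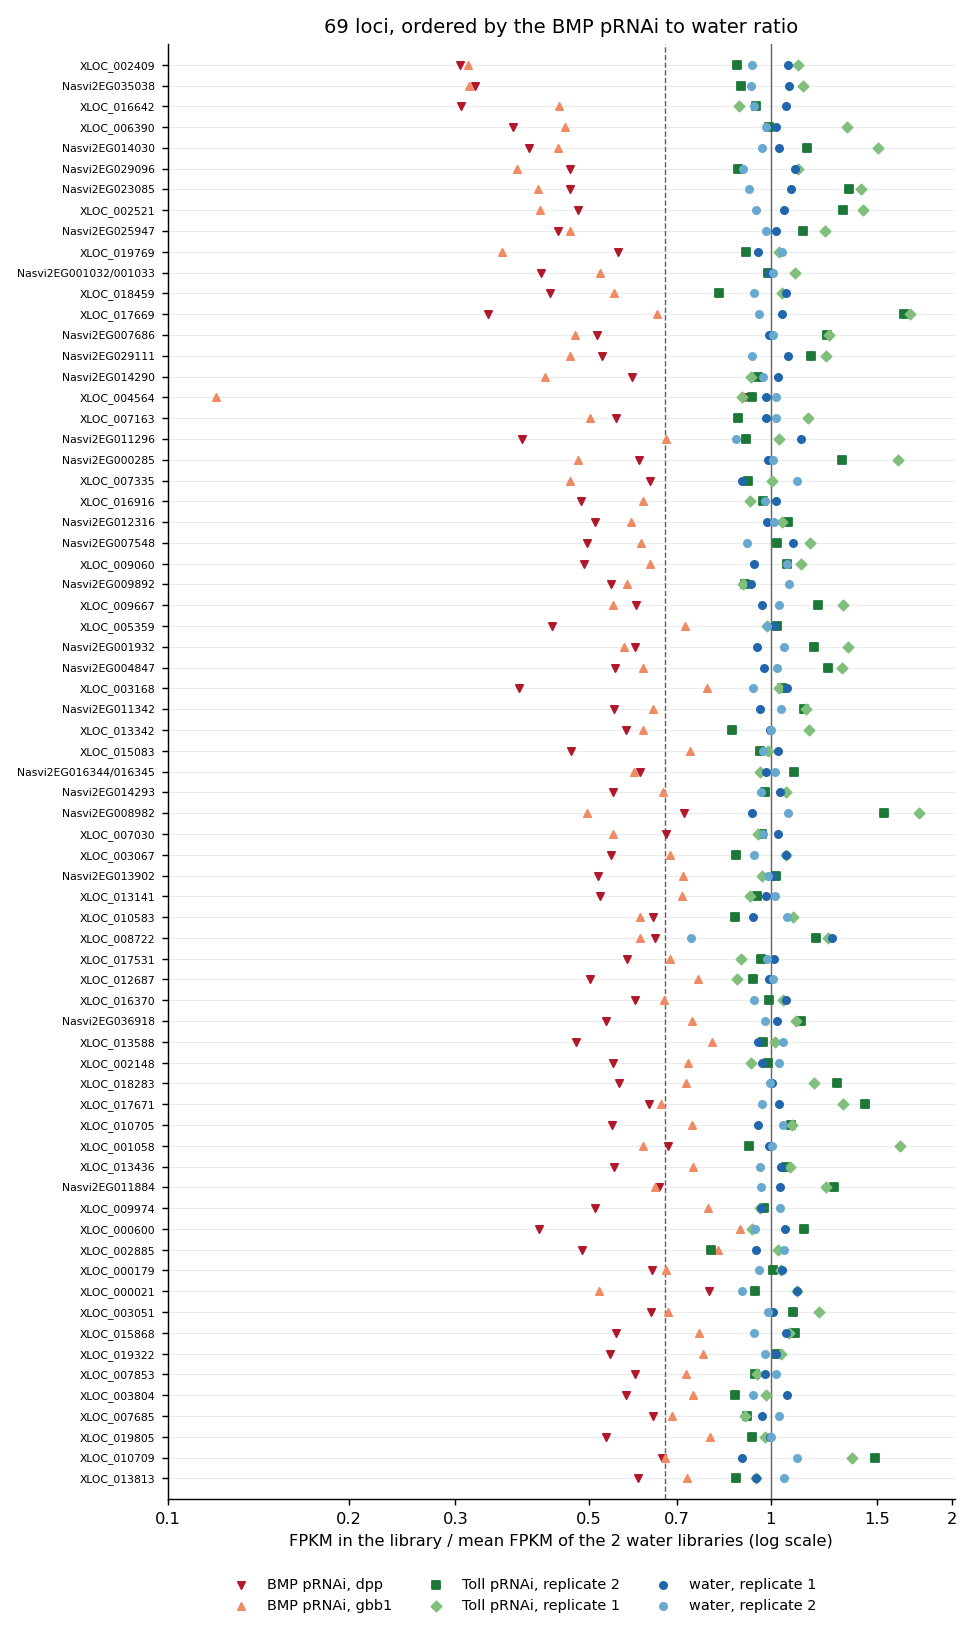
FPKM of each of the 69 loci in each of the 6 libraries, divided by the mean of the 2 water libraries, on a log axis. Rows are ordered by the BMP pRNAi to water ratio, the solid line marks the water mean and the dashed line the limit of water divided by 1.5. The 2 BMP pRNAi libraries lie left of both water libraries in every row because the rule asked for it, and in most rows they lie near the dashed line.

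The 10 loci with the deepest falls have no named ortholog in the study's lists. XLOC_002409, with no paired identifier, had 2.19 FPKM in the dpp library and 2.25 FPKM in the gbb1 library, 6.29 and 7.95 FPKM in Toll pRNAi, and 7.65 and 6.66 FPKM in water. The Toll pRNAi and water values overlapped, and the level in BMP pRNAi was 0.31 of that in water. Nasvi2EG035038, on scaffold 2270 at positions 5131 to 7268 (all positions are those of assembly 1.0), showed levels of 6.54 and 6.38 FPKM in BMP pRNAi, 18.1 and 22.9 FPKM in Toll pRNAi and 21.7 and 18.7 FPKM in water. This gene was tried by in situ hybridization and is marked as failed. Its ratio was 0.32, and the 2 ligand libraries differed by only 0.04 log2 units at both of these loci.

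XLOC_016642 had 4.37 and 6.35 FPKM in BMP pRNAi, 13.5 and 12.6 FPKM in Toll pRNAi and 15.1 and 13.4 FPKM in water. Here the dpp library was the lower of the 2. XLOC_006390 had 6.27 and 7.66 FPKM in BMP pRNAi, 16.7 and 22.4 FPKM in Toll pRNAi and 17.1 and 16.5 FPKM in water. The Toll pRNAi libraries of this locus lay one within and one above the water range. Nasvi2EG014030 (scaffold 40, positions 1179496 to 1187020) was just above the water limit of the rule, with 1.22 and 1.36 FPKM in BMP pRNAi, 3.51 and 4.61 FPKM in Toll pRNAi and 3.16 and 2.96 FPKM in water. No in situ hybridization was tried for it.

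Nasvi2EG029096 (scaffold 474, positions 27126 to 36161) is annotated by the study as a transposon and was not tried by in situ hybridization. It had 6.58 and 5.37 FPKM in BMP pRNAi, 12.498 and 15.7 FPKM in Toll pRNAi and 15.5 and 12.7 FPKM in water. Since copies of a transposon share reads, how these fragments divide between copies is uncertain. Nasvi2EG023085 (scaffold 185, positions 236466 to 240004), which the study's annotation list does not hold, had 1.82 and 1.61 FPKM in BMP pRNAi, 5.27 and 5.52 FPKM in Toll pRNAi and 4.22 and 3.60 FPKM in water. XLOC_002521 had 3.34 and 2.88 FPKM in BMP pRNAi, 9.16 and 9.88 FPKM in Toll pRNAi and 7.32 and 6.59 FPKM in water. In both of these the 3 groups separated completely, in the order BMP pRNAi, water and Toll pRNAi from low to high.

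The same order held at Nasvi2EG025947 (scaffold 284, positions 46936 to 49511), with 1.70 and 1.79 FPKM in BMP pRNAi, 4.35 and 4.74 FPKM in Toll pRNAi and 3.92 and 3.77 FPKM in water. XLOC_019769, the tenth by ratio, had 3.41 and 2.19 FPKM in BMP pRNAi, 5.56 and 6.29 FPKM in Toll pRNAi and 5.83 and 6.38 FPKM in water. Across the first 10 loci the fall lay between 2.18-fold and 3.23-fold. Of these 10, 5 have a paired identifier, and the water mean was never above 20.2 FPKM.

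**Figure D2:**
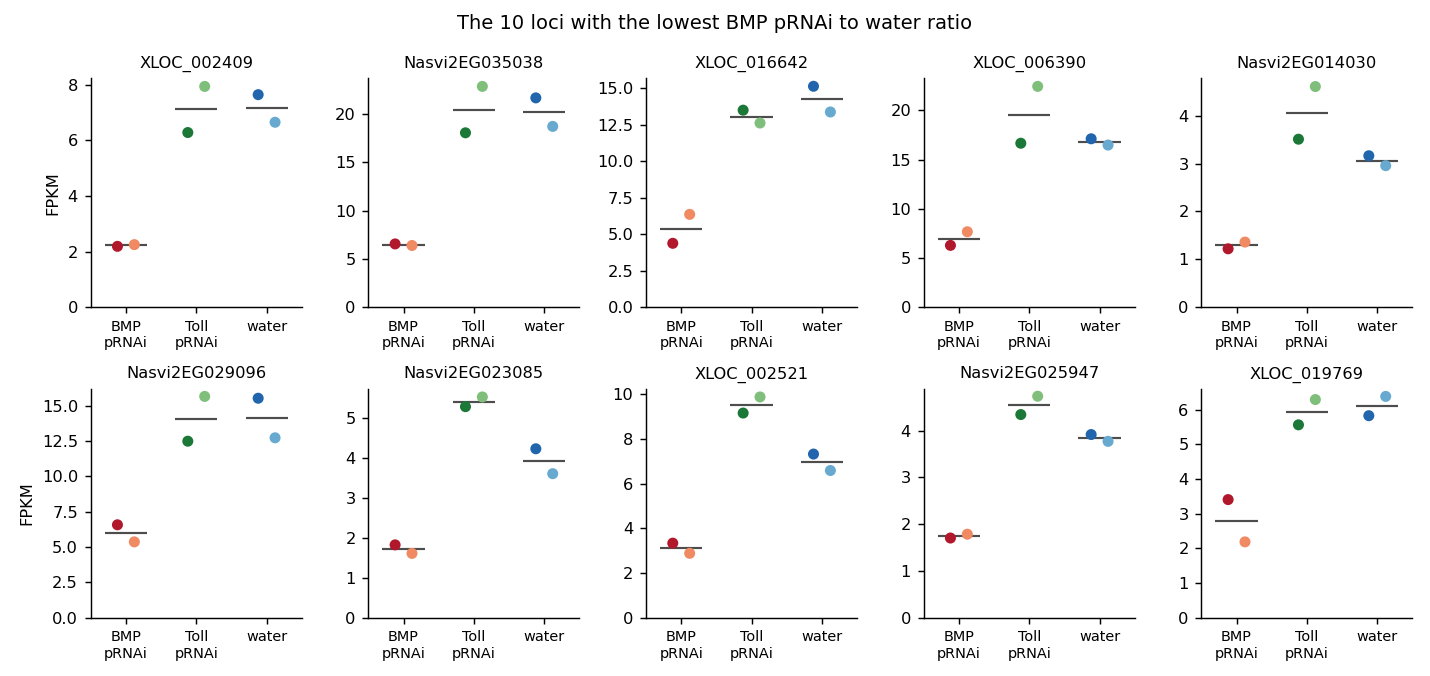
FPKM of the 10 loci with the lowest BMP pRNAi to water ratio. Points are single libraries (in BMP pRNAi dpp on the left and gbb1 on the right) and the bar is the mean of 2, on a linear axis from 0. The BMP pRNAi libraries stand apart from the other 4 in every panel, and Toll pRNAi lies wholly above water only for Nasvi2EG014030, Nasvi2EG023085, XLOC_002521 and Nasvi2EG025947.

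The 5 most abundant loci fell between 1.509-fold and 1.85-fold. XLOC_019805 was the highest in water, with 109.7 and 163 FPKM in BMP pRNAi, 191 and 201 FPKM in Toll pRNAi and 205 and 206 FPKM in water. Its ratio of 0.66 lies close to the limit, and the dpp library was much lower than the gbb1 library. The locus with the preceding number, XLOC_019804, missed the limit narrowly, with 192 and 217 FPKM in BMP pRNAi, 298 and 286 FPKM in Toll pRNAi and 314 and 299 FPKM in water. XLOC_007030 had 46.0 and 37.5 FPKM in BMP pRNAi, 66.2 and 65.2 FPKM in Toll pRNAi and 70.4 and 66.4 FPKM in water. XLOC_015083 had 31.5 and 49.5 FPKM in BMP pRNAi, 64.8 and 66.9 FPKM in Toll pRNAi and 69.5 and 65.6 FPKM in water. In all 4 of these the Toll pRNAi mean was slightly below the water mean. XLOC_000179 had 38.3 and 40.5 FPKM in BMP pRNAi, 60.9 and 62.6 FPKM in Toll pRNAi and 62.9 and 57.7 FPKM in water, and its ligand libraries were nearly equal.

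The second most abundant locus is the only one of the 5 with an identifier. Nasvi2EG000285 (scaffold 1, positions 2122329 to 2123815) had 59.8 and 47.4 FPKM in BMP pRNAi, 129.99 and 161 FPKM in Toll pRNAi and 97.9 and 100.02 FPKM in water. Both Toll pRNAi libraries were above both water libraries, with a mean ratio of 1.47. No pattern was found for it by in situ hybridization, although its level in water was higher than that of most loci with a listed pattern. The gene lies 20696 bases from twist (Nasvi2EG000292), which encodes a transcription factor of the mesoderm. The neighbour went the other way, with 79.0 and 87.8 FPKM in BMP pRNAi, 1.33 and 2.93 FPKM in Toll pRNAi and 40.3 and 37.0 FPKM in water.

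The study's annotation gives an in situ hybridization status for 22 of the 23 paired loci. For 11 of them no hybridization was tried, for 7 no pattern was found, and for 4 the hybridization failed. The loci with no pattern found had a median water level of 9.62 FPKM and a median fall of 1.72-fold. Those not tried had a median of 9.69 FPKM and 1.81-fold. The failed ones had a median of 21.0 FPKM and 2.02-fold. The groups are small and overlap in both measures.

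Among the loci with no pattern found, that of Nasvi2EG001032 and Nasvi2EG001033 fell most. It spans 2 identifiers (scaffold 1, positions 8279272 to 8292107), so its values cannot be given to either gene, and it had 3.50 and 4.38 FPKM in BMP pRNAi, 8.33 and 9.24 FPKM in Toll pRNAi and 8.36 and 8.49 FPKM in water. Among the failed ones, Nasvi2EG007686 (scaffold 14, positions 182646 to 185690) had 11.98 and 11.04 FPKM in BMP pRNAi, 28.9 and 29.1 FPKM in Toll pRNAi and 23.1 and 23.5 FPKM in water. The replicates of this gene lay close together, and its 3 groups did not overlap. Nasvi2EG029111 (scaffold 475, positions 50991 to 59571), also failed, had 1.76 and 1.56 FPKM in BMP pRNAi, 3.91 and 4.15 FPKM in Toll pRNAi and 3.59 and 3.12 FPKM in water.

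Only one of the loci carries the name of a fly gene. Nasvi2EG036918 (scaffold 1, positions 3621288 to 3656527) is the counterpart of Drosophila ASPP, a protein with ankyrin repeats, an SH3 domain and a proline-rich region that regulates the kinase Csk and the adhesion of epithelial cells in the fly. It had 5.17 and 7.17 FPKM in BMP pRNAi, 10.9 and 10.7 FPKM in Toll pRNAi and 9.90 and 9.47 FPKM in water, a fall of 1.57-fold. The dpp library was the lower of the 2. The next locus number, XLOC_000600, is also among the 69, with 1.49 and 3.22 FPKM in BMP pRNAi, 4.12 and 3.37 FPKM in Toll pRNAi and 3.83 and 3.41 FPKM in water. In FPKM the gbb1 library of XLOC_000600 lay only just below the water range.

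Several paired loci lie beside genes whose patterns are listed. Within 50 kb of another paired locus of the 69, or of a listed locus that passed the same limits, were 5 of the 23 paired loci (21.7%), against 12 of 219 other paired loci above 3 FPKM in water (5.48%). The pairing table was used only in part, and neighbours share position, so these shares are given as a description.

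The first cluster surrounds orthodenticle on scaffold 42. Orthodenticle encodes a homeodomain transcription factor that patterns the anterior, and in Nasonia also the posterior, of the embryo. Nasvi2EG014290 (positions 377333 to 378537) lies 66 bases from the orthodenticle locus Nasvi2EG014289, and the study notes that it may be part of that gene. It had 31.7 and 22.7 FPKM in BMP pRNAi, 51.4 and 49.9 FPKM in Toll pRNAi and 55.4 and 52.2 FPKM in water. Orthodenticle itself had 35.8 and 33.2 FPKM in BMP pRNAi, 69.7 and 67.5 FPKM in Toll pRNAi and 75.8 and 73.7 FPKM in water. In both loci the 2 Toll pRNAi libraries lay slightly below both water libraries. Nasvi2EG014293 (positions 402440 to 408554), for which no pattern was found, lies 7877 bases from the second orthodenticle locus, Nasvi2EG014291. It had 4.41 and 5.33 FPKM in BMP pRNAi, 7.87 and 8.52 FPKM in Toll pRNAi and 8.34 and 7.74 FPKM in water. Nasvi2EG014291 was at a like level in water, with 9.33 and 7.95 FPKM, and fell further in BMP pRNAi, to 2.56 and 1.98 FPKM.

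A second cluster lies on scaffold 7, beside bowl (Nasvi2EG004848), which encodes a zinc finger protein of the odd-skipped family and has a broad lateral pattern in the list. Nasvi2EG004847 (positions 1398685 to 1401527) is 513 bases from it and had 3.72 and 4.14 FPKM in BMP pRNAi, 8.38 and 8.85 FPKM in Toll pRNAi and 6.56 and 6.91 FPKM in water. Bowl had 2.47 and 3.41 FPKM in BMP pRNAi, 6.18 and 6.36 FPKM in Toll pRNAi and 4.93 and 4.13 FPKM in water. Nasvi2EG004843, an unnamed gene with a broad lateral pattern that lies 22131 bases from Nasvi2EG004847, had 4.89 and 5.21 FPKM in BMP pRNAi, 12.1 and 15.98 FPKM in Toll pRNAi and 7.64 and 8.49 FPKM in water. All of these loci were lowest in BMP pRNAi and highest in Toll pRNAi without overlap.

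A pair of unpaired loci, XLOC_017669 and XLOC_017671, are numbered between Nasvi2EG004843 and bowl, which bracket 31.7 kb (positions 1374243 to 1405975). Whether they lie in this stretch is not known. Locus numbers rose with position between 1278 of 1485 consecutive paired loci on one scaffold and fell between 207, and Nasvi2EG004847 lies in the stretch under a number outside it. Where the numbered neighbours of a paired locus were on one scaffold in rising order, the locus lay between them in 1127 of 1136 cases (99.2%). XLOC_017669 had 3.67 and 7.01 FPKM in BMP pRNAi, 18.03 and 18.4 FPKM in Toll pRNAi and 11.3 and 10.3 FPKM in water. Its Toll pRNAi to water ratio of 1.68 was the highest of the 69, but it also had the fewest fragments, 38 in the dpp library and 66 in the gbb1 library. XLOC_017671 had 3.69 and 3.87 FPKM in BMP pRNAi, 8.43 and 7.77 FPKM in Toll pRNAi and 6.07 and 5.71 FPKM in water, and so followed the same order. The bracket was looked for after these values had been seen.

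**Figure D3:**
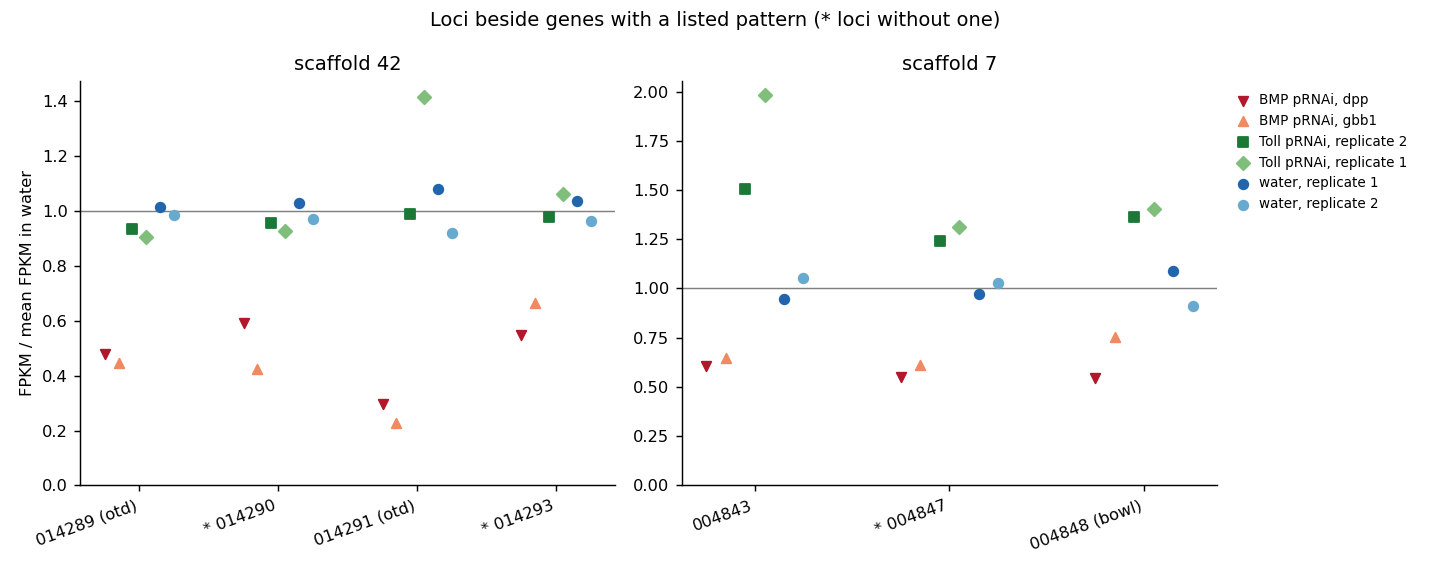
FPKM of neighbouring loci on scaffold 42 and scaffold 7 in each library, divided by the mean of the 2 water libraries, on a linear axis from 0. Identifiers are shortened to their last 6 digits, and an asterisk marks loci without a listed pattern. On scaffold 42 most Toll pRNAi points lie near the water line, and on scaffold 7 all of them lie above every water point of their locus.

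The remaining neighbours were single. Nasvi2EG007548 (scaffold 13, positions 2168574 to 2170519) lies 4338 bases from the counterpart of the fly gene CG11966 (Nasvi2EG007545) and had 7.84 and 9.65 FPKM in BMP pRNAi, 16.2 and 18.4 FPKM in Toll pRNAi and 17.2 and 14.4 FPKM in water. Nasvi2EG011296 (scaffold 24, positions 540085 to 544415) lies 37228 bases from wing blister, which encodes a laminin subunit, and had 3.72 and 6.46 FPKM in BMP pRNAi, 8.76 and 9.92 FPKM in Toll pRNAi and 10.8 and 8.43 FPKM in water. Both listed neighbours have broad lateral patterns, and for the CG11966 counterpart the study also describes pair-rule stripes and a stripe in the serosa. Adjacent locus numbers within the 69 were found in 3 pairs, the ASPP locus with XLOC_000600, Nasvi2EG011342 with XLOC_009060, and the locus of Nasvi2EG016344 and Nasvi2EG016345 with XLOC_016642.

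In Toll pRNAi the rule itself kept the loci at or above 0.9 of the water mean, which 75.8% of all loci above 3 FPKM in water were. The fairer background is therefore the 5174 loci that passed this limit. The Toll pRNAi mean lay between 0.9 and 1.1 of the water mean at 47 of the 69 loci (68.1%), against 62.2% of the 5174, and above 1.1 at 22. The median ratio was 1.02 in the 69 and 1.05 in the 5174. Both Toll pRNAi libraries were above both water libraries at 25 of the 69 loci (36.2%), against 45.2% of the 5174 and 34.3% of all loci above 3 FPKM in water. They were both below at 11 loci (15.9%), against 11.7% of the 5174 and 30.2% of all loci above 3 FPKM. A ratio of at least 1.2 was found at 17 loci (24.6%), against 17.9% of the 5174 and 13.6% of all loci above 3 FPKM. Since the rule used these libraries, the shares are a description.

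In the edgeR fit, 1 of the 69 was called higher in Toll pRNAi than in water, where 2.6% of all loci tested were called higher. This was XLOC_010709, with 16.2 and 16.4 FPKM in BMP pRNAi, 36.6 and 33.5 FPKM in Toll pRNAi and 21.97 and 27.1 FPKM in water. None was called lower, which the 0.9 limit of the rule made likely beforehand, and 1.03% of all loci were. Its ratio was 1.43, and 3 of the 69 had a higher one. Nasvi2EG008982 (scaffold 16, positions 3875245 to 3877168), not tried by in situ hybridization, had 3.55 and 2.45 FPKM in BMP pRNAi, 7.62 and 8.72 FPKM in Toll pRNAi and 4.59 and 5.28 FPKM in water. Its ratio of 1.65 was second to XLOC_017669, and Nasvi2EG000285, which was far more abundant, was the third.

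**Figure D4:**
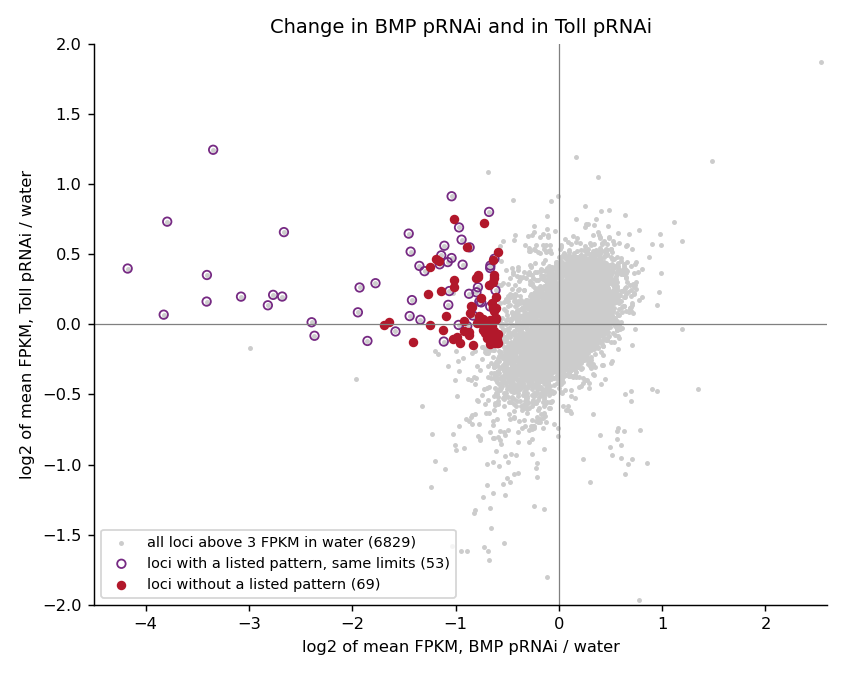
log2 ratio of mean FPKM in BMP pRNAi to water (horizontal) and in Toll pRNAi to water (vertical) for all loci above 3 FPKM in water, of which 14 lie outside the axes. Filled points are the 69 loci and open circles the 53 loci left out, of which 52 have a listed pattern and 1 is dpp. The 69 crowd at the limit of the rule, and the open circles extend much further to the left.

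The 53 loci left out for a listed pattern, or as dpp, passed the same limits and give the scale of the falls. Their water to BMP pRNAi ratio had a median of 2.20 and reached 18.05, against a median of 1.67 and a highest value of 3.23 in the 69. At least 2-fold lower were 34 of the 53 (64.2%) and 15 of the 69 (21.7%), and 17 of the 53 fell further than any of the 69. The median level in water was 15.01 FPKM in the 53 and 9.69 FPKM in the 69. The Toll pRNAi to water ratio had a median of 1.18 in the 53 and 1.02 in the 69. The study chose its list on these libraries and took genes with significant changes to in situ hybridization, so the sets were not chosen alike and the difference carries no test.

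By pattern, the median fall of the 69 was nearest to that of loci with broad lateral or ventrally repressed patterns. The 13 listed loci with a broad lateral pattern had a median BMP pRNAi to water ratio of 0.59 (0.47 to 0.65), and the 69 a median of 0.60 (0.31 to 0.66). The 21 loci of the serosa, an extraembryonic membrane that arises from the dorsal midline, had a median of 0.33. The 8 dorsolateral loci had a median of 0.22, the pair repressed only in the mesoderm had 0.55 and 0.63, and the 7 patterned along the anteroposterior axis had a median of 0.46. In Toll pRNAi the broad lateral loci had a median ratio to water of 1.34, and so stood above the 69, whose median was 1.02. By this ratio the serosa loci were the nearest, with a median of 1.12, and the dorsolateral loci had 1.37. Of the 69 loci, 11 had a lower BMP pRNAi ratio than any broad lateral locus. These are likenesses in level only, and no pattern can be given to a locus from them.

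The genes of the BMP pathway spanned a wider range of falls than the 69. Of the 6 genes, 5 were lower in BMP pRNAi than in water (edgeR adjusted p under 0.05), and dpp missed this threshold (edgeR adjusted p 0.057). By the same test 1, tsg2, was higher in Toll pRNAi than in water. The receptor gene punt had 1.82 and 0.64 FPKM in BMP pRNAi, 14.3 and 15.01 FPKM in Toll pRNAi and 13.2 and 12.9 FPKM in water. The gene cv2, whose product binds BMPs outside the cell, had 0.40 and 0.32 FPKM in BMP pRNAi, 4.56 and 5.10 FPKM in Toll pRNAi and 4.14 and 3.43 FPKM in water. The Smad gene mad was among the 5 called lower, but its ratio was 0.76 and it lay outside the limits. The ligand gene dpp, with 7.03 FPKM in the dpp library and 12.7 FPKM in the gbb1 library, had a ratio of 0.56, which lies in the range of the 69. All but dpp are in the list that the study chose on these libraries.

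The 2 ligand libraries were not equally low over the 69. The level relative to water had a median of 0.55 in the dpp library and 0.63 in the gbb1 library. The dpp library was the lower of the 2 at 47 loci (68.1%) and the gbb1 library at 22. At the loci with a listed pattern, dpp left aside, the dpp library was lower at 25 of 52 (48.1%), and over all loci above 3 FPKM in water at 40.5%. The median log2 difference, dpp minus gbb1, was -0.20 in the 69, 0.00 in these 52 and 0.05 over all loci above 3 FPKM. Within the 69 it was -0.06 at the 23 loci with a paired identifier and -0.30 at the other 46. Both libraries reached the limit of water divided by 1.5 on their own at 36 of the 69, the dpp library alone at 28 and the gbb1 library alone at 5. The rule used the mean of these 2 libraries, so the shares are a description, and all loci above 3 FPKM are not a matched background. Over all those loci the level relative to water had quartiles of 0.89 and 1.25 in the dpp library. In the gbb1 library they were 0.91 and 1.13, so the dpp library was spread more widely around water. With 1 library for each ligand, a difference between the ligands cannot be told apart from a difference between 2 pools.

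The widest gap was at XLOC_004564. It had 10.6 FPKM in the dpp library and 1.40 FPKM in the gbb1 library, 10.8 and 10.4 FPKM in Toll pRNAi, and 11.4 and 11.9 FPKM in water. These levels rest on 512 fragments in the dpp library and 75 in the gbb1 library, 480 and 409 in Toll pRNAi and 445 and 573 in water. The gbb1 library alone was low, and the dpp library overlapped with Toll pRNAi. Of all 6829 loci above 3 FPKM in water, this was the only one at least 4-fold lower in the gbb1 library than in the dpp library, and 1 locus differed as much the other way. No gene identifier is paired with it, and gbb1 was not assigned to a locus here.

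Other loci leaned to the gbb1 side less strongly. XLOC_019769 differed by 0.62 log2 units, and XLOC_000021, with 10.6 and 6.99 FPKM in BMP pRNAi, 12.7 and 14.9 FPKM in Toll pRNAi and 14.9 and 12.1 FPKM in water, by 0.60. On the dpp side the widest gaps were at XLOC_000600, with -1.06, at XLOC_003168, with -1.004, and at XLOC_017669, with -0.91. XLOC_003168 had 2.16 and 4.44 FPKM in BMP pRNAi, 5.92 and 5.85 FPKM in Toll pRNAi and 6.02 and 5.29 FPKM in water. In all 3 the gbb1 library lay between the dpp library and water in FPKM. On fragments, unscaled for library size, XLOC_000600 had 132 and 222 in BMP pRNAi and 149 and 179 in water. This order therefore rests on the FPKM scaling at that locus. The ligand libraries were within 1.5-fold of each other at 56 of the 69 (81.2%), a smaller share than the 96.7% of all loci above 3 FPKM in water. Among the 53 loci left out, which passed the same limits, this held at 47. Replicates differed more in BMP pRNAi than elsewhere, with a median absolute log2 difference over the 69 of 0.30 between the ligand libraries, 0.10 between the Toll pRNAi libraries and 0.11 between the water libraries. Between the ligand libraries this median was 0.23 over the 53 and 0.16 over all loci above 3 FPKM in water.

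**Figure D5:**
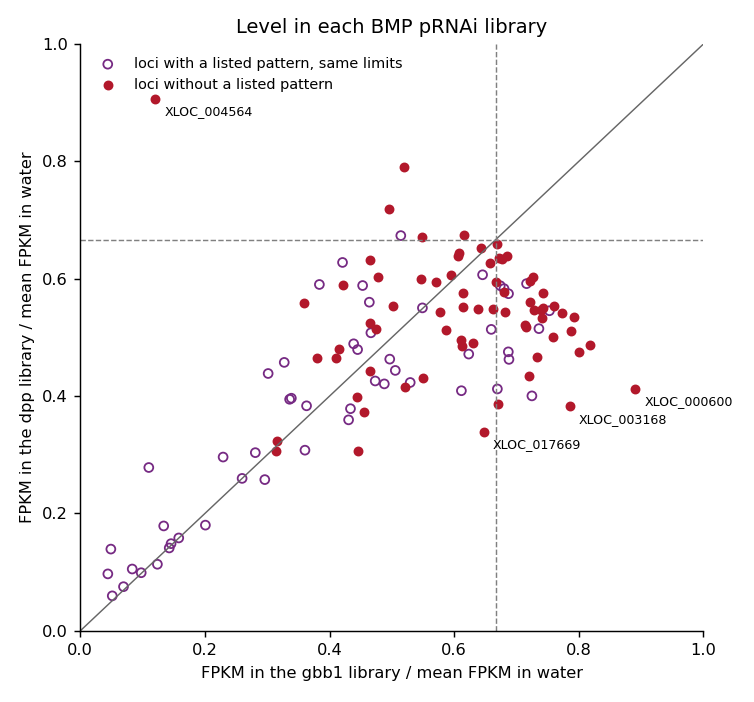
FPKM in the gbb1 library (horizontal) and in the dpp library (vertical), each divided by the water mean, for the 69 loci (filled) and the 53 loci left out (open). The diagonal marks equal levels and the dashed lines water divided by 1.5. XLOC_004564 stands alone at the upper left, and 47 filled points lie below the diagonal.

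The limits cut through a continuous range of loci. Just inside the water limit were Nasvi2EG014030, with a water mean of 3.06 FPKM, Nasvi2EG029111, with 3.35 FPKM, and XLOC_003067, with 3.46 FPKM. Just outside lay XLOC_006464, with 2.98 FPKM, XLOC_015020, with 2.86 FPKM, and XLOC_009097, with 2.85 FPKM. The fall itself was 1.504-fold at XLOC_013813, 1.507-fold at XLOC_010709 and 1.509-fold at XLOC_019805 inside the limit, and 1.496-fold at XLOC_019804, 1.4905-fold at XLOC_007546 and 1.487-fold at XLOC_003024 outside it. The Toll pRNAi to water ratio was 0.903 at Nasvi2EG009892, 0.906 at XLOC_012687 and 0.911 at XLOC_007685 inside, and 0.896 at XLOC_010011, 0.894 at XLOC_007885 and 0.890 at XLOC_016629 outside. At each limit the nearest value inside and the nearest outside differed by less than the replicates of these loci did.

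The rule did not use length, which can be compared between loci as fragments per FPKM. On this scale the 69 had a median of 1.72 times the median locus above 3 FPKM in water, with quartiles of 1.004 and 2.66, and the 53 loci left out a median of 1.60 times. The library with the fewest fragments had a median of 549 over the 69 loci and fewer than 100 at only 3 of them.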

How the data were processed

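Poly-A RNA of 6 pools of embryos was measured, 2 for each of BMP pRNAi, Toll pRNAi and water. The authors aligned the reads with TopHat2 2.0.3 to assembly 1.0 with annotation 2.0 and ran Cuffdiff on the 3 conditions (Cufflinks 2.0.2 is named in their processing notes). For every library and 20033 loci, the deposited table gives the expected count of fragments that the authors' Cuffdiff run assigned, unscaled and not always whole, since fragments mapping to several places are divided. It also holds the FPKM that the authors' run computed, scaled for library size and transcript length. Replicates were matched to libraries by the order in the authors' Cuffdiff command. A deposited table of counts pooled per condition was not used, and neither were the authors' own fold changes and p-values in the tables of the paper.

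The 69 loci, the gene lists and the tests were chosen with earlier results of these data known. Members came from the FPKM limits given in the report. No test was run on the falls of these loci, because all groups entered the rule. The rounded expected counts were fitted with edgeR 4.0.16 in R 4.3.3 (quasi-likelihood test, TMM, default filter, which kept 10241 loci, all 6 libraries, Benjamini-Hochberg adjustment over all loci of a comparison), and checked on simulated counts. Replicates are separate pools of embryos. The 2 BMP pRNAi pools also differ in the gene targeted and the 2 Toll pRNAi pools in the dsRNA. The p-values therefore measure the spread between pools together with these differences. Ratios use mean FPKM, and differences between ligand libraries use log2(FPKM + 0.1). Alternatives were DESeq2 1.42.0, RLE size factors, other filters, the 2 groups compared alone, limma 3.58.1 on log2(FPKM + 1) and log2(FPKM + 0.1), a block, other limits, and leaving out each library. Identifiers, in situ status and positions came from the study's lists, and positions were changed to count from 1. The pairing table used holds 1799 loci. The reference gene table matched 0 of its identifiers, so no sequence is shown.

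Loci were named by rule: the 10 lowest BMP pRNAi to water ratios, the 5 highest in water, those with an ortholog or product name, the 3 widest gaps between ligand libraries on either side, the 3 highest Toll pRNAi to water ratios, the 3 just inside and outside each limit, and those within 50 kb of another locus of the set or of a listed locus that passed the limits. Named after their values were seen were XLOC_017671, XLOC_000600 as a neighbour, XLOC_010709 for its call, the loci with the widest gaps between fragments and FPKM, and the examples by in situ status. At the depths reached, loci had 38 to 19116 fragments per library. Spread between pools, not counting error, then sets the precision of most values.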

Additional observations from a re-analysis of the deposited data

How the results depend on the processing

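The number of loci that met the rule depended most on its own limits and on the gbb1 library. It was 15 with a fall of at least 2-fold, 41 with a Toll pRNAi mean of at least the water mean and 167 with no limit on Toll pRNAi. TMM-scaled CPM in place of FPKM gave 76 loci, of which 60 were among the 69. Leaving out 1 library gave between 53 loci (without the dpp library, 41 of them among the 69) and 161 loci (without the gbb1 library, 64 of them among the 69). Without water replicate 1 there were 65 loci, 51 of them among the 69, and without water replicate 2 there were 72, with 57 among the 69. Which loci were picked therefore also depended on the dpp library and on each water library. The median log2 ratio to water of -0.74 and the median difference between ligand libraries moved by less than the spread between replicates under each alternative.

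Over all loci, those called lower in BMP pRNAi than in water by edgeR numbered 357, with 820 by DESeq2, 1217 with no filter on low counts, 136 with only the 2 groups, and 16 by limma on log2(FPKM + 1) with no filter. Of the 69, 49 were called, with 29 in the fit of only the 2 groups and 1 by limma with no filter. Without 1 library the counts ran between 84 (without water replicate 2) and 1401 (without the gbb1 library) over all loci and between 17 and 61 over the 69.

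Higher in Toll pRNAi than in water were 266 loci, with 437 by DESeq2, 533 with no filter, 723 with only the 2 groups and 33 by limma with no filter. Of the 69, 1 was called, with 5 by DESeq2, 6 with no filter, 5 with at least 10 fragments in every library, 11 with only the 2 groups and 0 by limma on log2(FPKM + 1), log2(FPKM + 0.1) or with no filter. Without 1 library these counts ran between 3 and 695 over all loci (lowest without water replicate 2, highest without the gbb1 library) and between 0 and 11 over the 69. XLOC_002409 was slightly higher in Toll pRNAi than in water on fragments and turned to -0.011 by limma on log2(FPKM + 1), with or without a filter, and to -0.014 on log2(FPKM + 0.1), and the cause was not tested.

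Higher in Toll pRNAi than in BMP pRNAi were 597 loci, with 1036 with no filter, 304 by limma on log2(FPKM + 1) and on log2(FPKM + 0.1), and 76 by limma with no filter. Of the 69, 53 were called, with 7 by limma with no filter. Without 1 library the counts ran between 180 (without Toll replicate 1) and 1231 (without the gbb1 library) over all loci and between 32 and 64 over the 69. Numbers in the sample titles are shared by 1 Toll and 1 BMP library each, and deviations of these pairs from their group means correlated at 0.13 over 6827 loci. With 2 pairs, this does not show that the samples are paired. With that number as a replicate block, in a fit of only the 2 groups compared, 1005 loci were called. The fit of only the 2 groups without the block called 401.

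Counts of calls therefore vary several-fold with the fit. The direction of the BMP pRNAi values was set by the rule and says nothing about stability. Of 476 log2 fold changes between BMP pRNAi and water for 34 named loci under the alternatives, 475 were below 0, the exception being XLOC_000600 without the dpp library, at 0.13. XLOC_004564 was at -3.06 without the dpp library and at -0.18 without the gbb1 library.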
